A study of Mus musculus with 9 samples.

Results

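The genes described here are the core of the sonic hedgehog pathway in mouse embryonic orofacial tissue, from which the face and palate form. Of 7 genes listed (Shh, Ptch1, Smo, Gli1, Gli2, Gli3 and Hhip), 6 had at least 1 probe set to which the array annotation gave that symbol and no other. Hhip had none and was dropped. The 6 genes had 7 probe sets, 2 of them for Ptch1, out of 12488 on the array. All 7 passed the filter on low values, which removed probe sets whose mean lay at or under an intensity of about 10.5. The series held 9 one-colour arrays of total RNA, 3 for each of gestation days (GD) 12, 13 and 14. All groups were labelled as orofacial tissue of mouse embryos, and strain, genotype, pooling of embryos and treatment were not given in the sources used here. Nothing in the labels says that the 3 arrays of a day came from separate litters, so p-values measure only the spread between these samples, which may be technical. In bulk tissue, fewer cells of a type and less RNA per cell cannot be told apart.

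Sonic hedgehog (Shh) is a secreted signal made by epithelium of the developing mouth, including the palatal ridges and tooth buds, and received by the neighbouring mesenchyme. The receptor Ptch1 holds the membrane protein Smo inactive until the ligand binds it, after which Smo signals through the primary cilium to the Gli transcription factors. Gli2 is the main activator, Gli3 acts largely as a repressor in the absence of signal, and Gli1 is an activator whose gene is itself switched on by the pathway. Ptch1 and Hhip are also pathway targets and bind the ligand, which limits its spread. Loss of Shh signalling disturbs growth of the facial midline and the palate.

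Deposited intensities are linear and had been scaled between arrays. Their median per array lay between 47.3 and 57.2. One control measure differed between arrays. Actin control probe sets sit near both ends of the transcript, and a higher 3'/5' ratio points to shorter or less complete labelled RNA. This ratio averaged 1.58 ± 0.175 at GD12, 1.86 ± 0.529 at GD13 and 2.04 ± 0.582 at GD14 (SD, n = 3 per day). It was lowest on the third array of each day. It lay between 1.25 and 1.76 on 5 arrays (all of GD12 and the third arrays of GD13 and GD14) and between 2.09 and 2.45 on the other 4. Values with the log2 ratio as a covariate are given beside results of named genes that it moves.

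None of the 7 probe sets passed the test between any of the days. In limma with Benjamini-Hochberg adjustment over 9316 tested probe sets, 0 of 7 passed between GD12 and GD14, where 4.39% of all tested probe sets did, and 2 of 7 had an unadjusted p under 0.05, against 17.5% of all. The values of those 2 days did not overlap for 2 of 7, against 22.3% of all. Between GD12 and GD13, 0 of 7 passed (0.698% of all), 0 had an unadjusted p under 0.05 (11% of all) and 0 had values that did not overlap (18.5% of all). Between GD13 and GD14, 0 of 7 passed (0.0429% of all), 0 had an unadjusted p under 0.05 (7.3% of all) and 0 had values that did not overlap (13% of all). The members furthest from no change were Gli3 and Gli2, which were at lower intensity on GD14 than on GD12 without overlap of the 3 values. The median log2 change of the 7 probe sets from GD12 to GD14 was -0.40, which is the value of Shh, against -0.02 over all tested probe sets. Of the 7 changes, 3 lay above 0 and 4 below. The median differed between settings, at -0.039 without GD14 replicate 1 and -0.24 without GD12 replicate 3. Under the filter at the median intensity, which left out Shh and Gli3, it was 0.020. With the log2 actin ratio as a covariate it was -0.032, where that of all tested probe sets was -0.026. All GD12 arrays had a lower ratio, so day and ratio cannot be fully told apart.

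**Figure D1:**
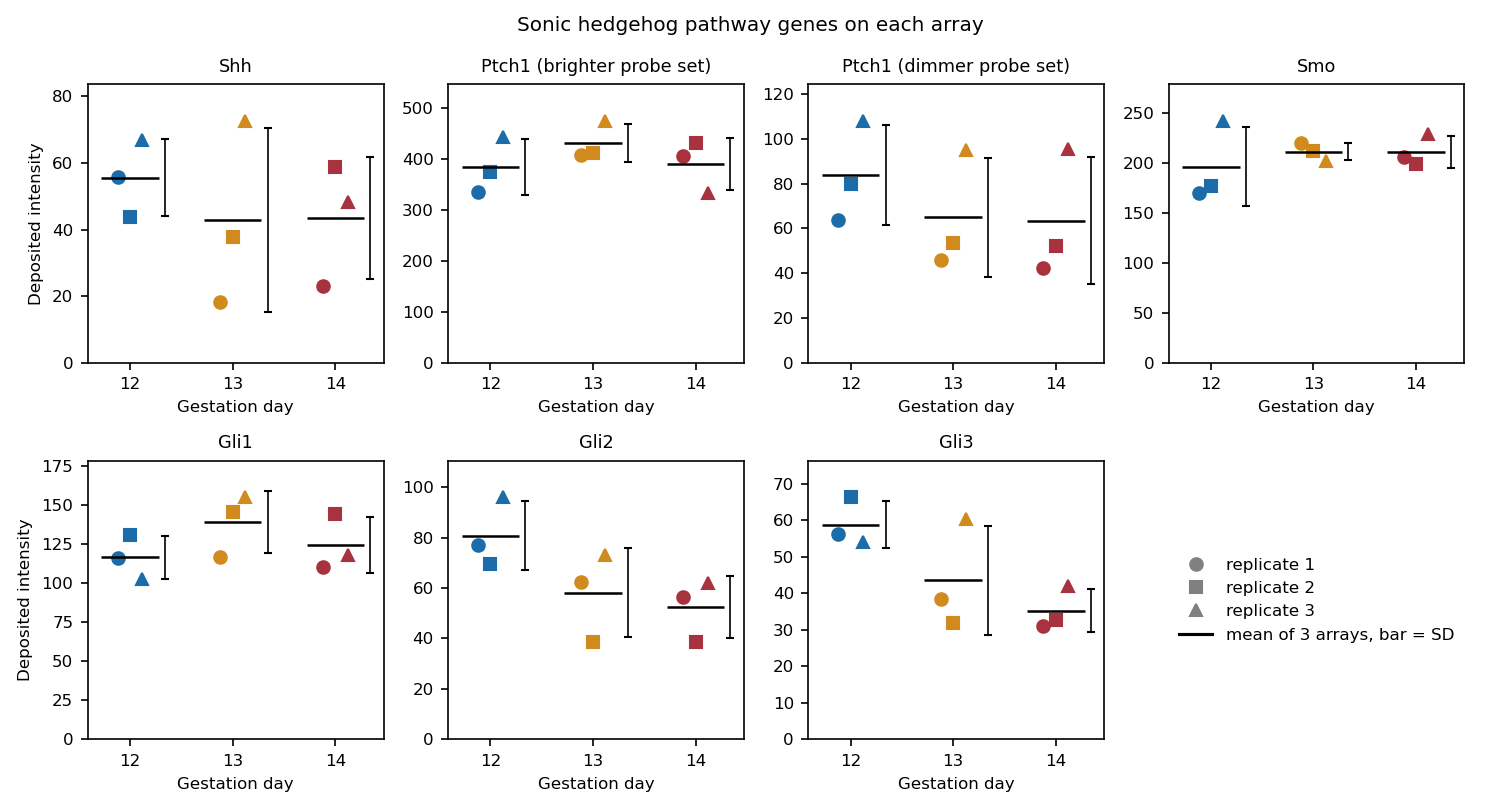
Deposited intensity (y axis, from 0, a separate scale in each panel) against gestation day for each of the 7 probe sets, with 1 symbol per array, the symbol shape giving the replicate number, a line at the mean of 3 arrays and a bar for the SD. All 3 GD14 values of Gli2 (38.7 to 62.2) and of Gli3 (31.0 to 41.9) sit under all 3 GD12 values, while in the other panels the GD12 and GD14 values overlap.

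For the ligand gene Shh the spread between arrays on GD13 and GD14 exceeded every difference between day means. Its intensities were 55.8, 43.9 and 67.0 on GD12, 18.3, 37.7 and 72.7 on GD13, then 23.1, 58.8 and 48.2 on GD14 (replicates 1, 2 and 3). The means were 55.6 ± 11.6, 42.9 ± 27.6 and 43.4 ± 18.3 (SD, n = 3 each), and the 3 days overlapped. The lowest values were the first arrays of GD13 and GD14, and the highest was the third array of GD13. The log2 change from GD12 to GD14 was -0.40 with a 95% confidence interval of -1.42 to 0.63 (limma adjusted p = 0.73). That interval was the widest of the 7, so neither a fall by more than 1 nor a rise by more than 0.5 on the log2 scale was outside it. That change was -0.039 without GD14 replicate 1 and -0.032 with the log2 actin ratio as a covariate. Shh read 18.3 to 58.8 on the 4 arrays with the higher ratio and 43.9 to 72.7 on the 5 with the lower one. From GD12 to GD13 the log2 change was -0.50 (adjusted p = 0.751), and from GD13 to GD14 it was 0.11 (adjusted p = 0.985). The GD12 to GD13 value was -0.056 without GD13 replicate 1, -0.95 without GD13 replicate 3 and -0.28 with the covariate. The GD13 to GD14 value ran from -0.34 (without GD13 replicate 1) to 0.55 (without GD13 replicate 3).

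Epithelium of the mouth is the known source of Shh, and its markers are given here beside it. Of 12 tested epithelial marker genes, 5 rose (Krt8, Krt19, Perp, Dsp and Dsc2) and 0 fell from GD12 to GD14, with a median log2 change of 0.72. Of all tested probe sets 3.34% rose. The 7 that did not pass had log2 changes of -0.21 (Trp63), -0.018 (Cdh1), 0.18 (Cldn4), 0.23 (Esrp1), 0.66 (Sfn), 0.69 (Epcam) and 0.76 (Krt18). Krt5, Krt14 and Krt15, also listed, did not pass the filter on low values. Of the 5 calls, 3 held without each single array, while that of Perp ended without any one of the 9 arrays and that of Dsp without any one of 8. The summed intensity of the 12 tested genes was 1334 to 1475 on GD12, 1865 to 1954 on GD13 and 2247 to 2480 on GD14, with no overlap between days. Shh can also be made by neural tissue. The summed intensity of 11 neural markers was 2474 to 3768 on GD12 and 1949 to 2675 on GD14, with 0 of 11 passing and 3 at an unadjusted p under 0.05 in limma, and 2 fell with the replicate block. Both sums are given beside the Shh values, and their part in them was not tested.

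The receptor gene Ptch1 had 2 probe sets whose values followed different patterns. On the brighter one intensities were 335.2, 374.3 and 443.7 on GD12, 407.0, 411.9 and 474.7 on GD13, then 405.7, 431.0 and 332.2 on GD14. The day means of 384 ± 54.95, 431 ± 37.8 and 390 ± 51.3 (SD, n = 3 each) overlapped, and the log2 change from GD12 to GD14 was 0.020 (95% interval -0.37 to 0.41, limma adjusted p = 0.974). Its sign turned under median scaling and without single arrays, so no order of these days is given.

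On the dimmer Ptch1 probe set intensities were 63.8, 79.7 and 108.1 on GD12, 46.0, 53.5 and 95.2 on GD13, then 42.3, 52.0 and 95.6 on GD14. The third array was the highest on every day, as on 11.8% of all tested probe sets, and the first and second arrays of GD13 and GD14 were all lower than every GD12 array. The log2 change from GD12 to GD14 was -0.43 (95% interval -1.23 to 0.37, limma adjusted p = 0.598), and with the replicate number as a block its interval narrowed to -0.76 to -0.11 (adjusted p = 0.112). This probe set was also lower on the arrays with the higher actin ratio. It read 42.3 to 53.5 on the 4 arrays with the higher ratio and 63.8 to 108.1 on the 5 arrays with the lower ratio, without overlap. The arrays were split at the largest gap in the ratio, and the 5 include all of GD12. How many of all tested probe sets separate in this way was not computed. With the log2 actin ratio in the model, the change from GD12 to GD14 was -0.049 (adjusted p = 0.935). The part of RNA and labelling quality in these values was not tested further. The brighter probe set did not separate in this way, at 405.7 to 431.0 and 332.2 to 474.7.

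Over the log2 values of the 9 arrays no correlation was detected between the 2 Ptch1 probe sets, with Pearson's r = 0.0097 (exact permutation p = 0.979) and Spearman's rho = 0.083 (exact permutation p = 0.843), both two-sided. Without the 2 arrays farthest from the median of the brighter probe set, r was 0.44. Within days the values ran together on GD12 (r = 0.9996) and GD13 (r = 0.99) and apart on GD14 (r = -0.89), each over 3 arrays and so without a test. The third array of GD14 had the lowest value of the brighter probe set and the highest GD14 value of the dimmer one.

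**Figure D2:**
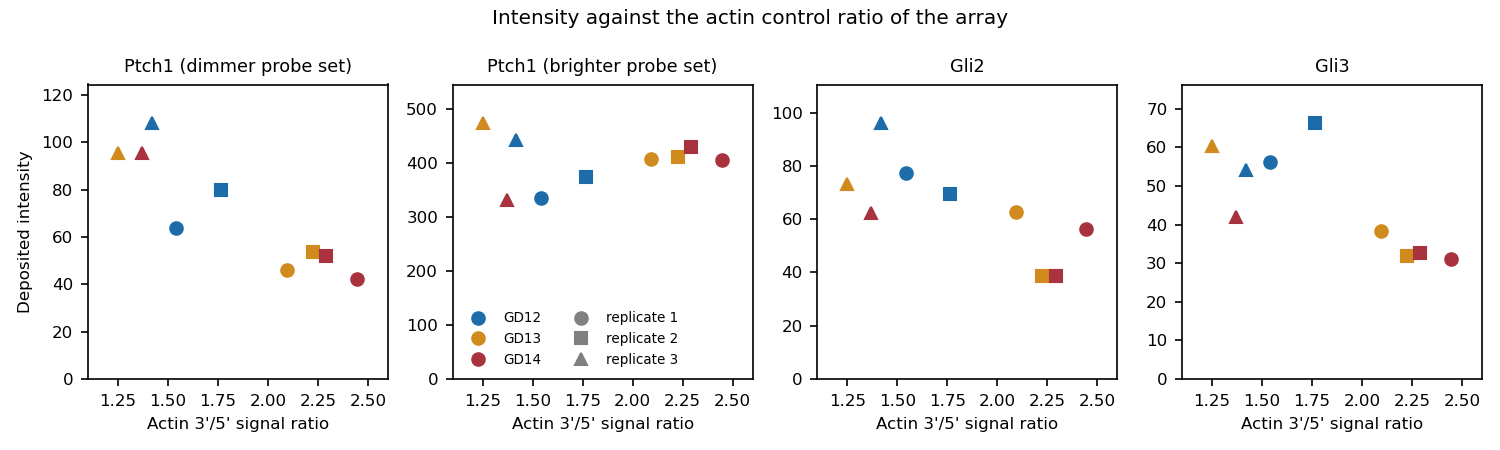
Deposited intensity (y axis, from 0) against the actin 3'/5' signal ratio of each array (x axis) for both Ptch1 probe sets, Gli2 and Gli3, with colour for the day and shape for the replicate number. The dimmer Ptch1 probe set reads 42.3 to 53.5 on the 4 arrays with a ratio of 2.09 or more, under all 5 other arrays. Those 5 include all arrays of GD12, and the brighter Ptch1 probe set does not separate.

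Smo, the signal transducer held back by Ptch1, read 169.4, 177.2 and 242.1 on GD12, 219.4, 211.5 and 202.1 on GD13, then 205.4, 198.4 and 228.5 on GD14. The third array of GD12 was the highest of the 9, and the other GD12 arrays were the lowest. Day means were 196 ± 39.9, 211 ± 8.66 and 211 ± 15.8 (SD, n = 3 each), so the spread on GD12 exceeded the differences between days. The log2 change from GD12 to GD14 was 0.12, with a 95% interval of -0.27 to 0.50 (limma adjusted p = 0.8).

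Gli1, the activator whose transcript is widely used as a readout of the pathway, ran from 102.5 to 154.8 over all arrays. It read 115.9, 130.5 and 102.5 on GD12, 116.8, 145.5 and 154.8 on GD13, then 110.2, 144.2 and 118.1 on GD14. The means of 116 ± 14.0, 139 ± 19.8 and 124 ± 17.8 (SD, n = 3 each) put GD13 highest and GD12 lowest, but all 3 days overlapped and neighbours in that order did not differ beyond their spread. The log2 change was 0.25 from GD12 to GD13 (adjusted p = 0.666), -0.16 from GD13 to GD14 (adjusted p = 0.933) and 0.089 from GD12 to GD14 (95% interval -0.32 to 0.49, limma adjusted p = 0.859). Changes beyond about 0.5 on the log2 scale between GD12 and GD14 lay outside this interval. It is unadjusted and measures only the spread between these samples, so it sets no limit for other embryos.

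Gli2 and Gli3 are shown with their promoter sequences because they were the 2 members whose GD12 and GD14 values did not overlap. Each window spans 250 bases before to 50 bases after an annotated start in RefSeq (build GRCm38.p6), written 5′ to 3′ on the strand of the gene. Windows were searched for Ptch1, Smo, Gli2, Gli3 and Hhip, 5 of the 7 listed genes, with 1 window each. The Gli2 window lies at chr1:119053570-119053869 on the minus strand and that of Gli3 at chr13:15463473-15463772 on the plus strand. The Ptch1 window (chr13:63565686-63565985, minus strand) and the Gli2 window lie wholly inside the annotated genes. Those genes reach upstream to 63573460 and 119054405, so starts further upstream were not searched for them. Capitals mark the core CCACCC of the Gli binding motif, on either strand.
Gli2: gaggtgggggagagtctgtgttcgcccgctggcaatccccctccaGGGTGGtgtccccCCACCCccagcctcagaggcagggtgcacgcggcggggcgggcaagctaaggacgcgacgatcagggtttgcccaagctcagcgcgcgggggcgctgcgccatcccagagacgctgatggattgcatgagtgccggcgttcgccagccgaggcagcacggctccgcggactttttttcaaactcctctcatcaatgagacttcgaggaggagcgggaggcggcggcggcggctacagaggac
Gli3: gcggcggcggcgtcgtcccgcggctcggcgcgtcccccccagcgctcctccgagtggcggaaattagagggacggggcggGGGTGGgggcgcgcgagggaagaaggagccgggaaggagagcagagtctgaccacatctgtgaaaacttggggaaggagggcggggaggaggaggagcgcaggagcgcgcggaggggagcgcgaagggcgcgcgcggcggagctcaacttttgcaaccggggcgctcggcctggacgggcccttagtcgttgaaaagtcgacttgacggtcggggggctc
The full consensus GACCACCCA was searched on both strands. It was in none of the 5 windows and in 0.253% of 32851 windows in the table, while the shorter core, part of the consensus, was in 31.5% of them. The Gli2 window held the core at 2 positions, starting 205 and 192 bases before the start site, and the Gli3 window at 1, starting 170 bases before it. The Smo and Hhip windows also held it once each, and the Ptch1 window did not, so 4 of the 5 windows had the core. A match to 6 letters is a description of the sequence and not a binding site.

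Gli2, the main activator of the pathway, read 77.2, 69.4 and 96.1 on GD12, 62.5, 38.7 and 73.3 on GD13, then 56.4, 38.7 and 62.2 on GD14. The means were 80.9 ± 13.7, 58.2 ± 17.7 and 52.4 ± 12.2 (SD, n = 3 each). All 3 GD14 values lay under the lowest GD12 value, and the GD13 values overlapped both other days. From GD12 to GD14 the log2 change was -0.60 (SE 0.26, 95% interval -1.20 to -0.006), or 1.52-fold lower, with limma adjusted p = 0.28. With the replicate number as a block the adjusted p was 0.0536, which did not pass either. In that model 0 of 7 members passed and 6.99% of all tested probe sets did. The third array was the highest of each day, as for the dimmer Ptch1 probe set.

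Gli3, the main repressor, read 56.2, 66.3 and 54.0 on GD12, 38.4, 31.8 and 60.3 on GD13, then 31.0, 32.6 and 41.9 on GD14. The means were 58.8 ± 6.56, 43.5 ± 14.9 and 35.2 ± 5.89 (SD, n = 3 each). The GD12 and GD14 values did not overlap, and the third array of GD13 lay among the GD12 values while the others of GD13 lay near GD14. The log2 change from GD12 to GD14 was -0.69 (SE 0.23, 95% interval -1.21 to -0.16), or 1.61-fold lower, with limma adjusted p = 0.156. Over the alternatives in which Gli3 was tested, all but the filter at the median, the change stayed below 0, from -0.86 to -0.49, and its adjusted p lay between 0.0684 and 0.363. Separation of the GD12 and GD14 values, lower on GD14, was seen for 10.3% of all tested probe sets, so 2 of 7 members is to be read against that share.

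Both genes also differed between the arrays with a higher and a lower actin ratio, and no correlation with the ratio was computed. Gli3 read 31.0 to 38.4 on the 4 arrays with the higher ratio and 41.9 to 66.3 on the 5 with the lower one. Gli2 read 38.7 to 62.5 and 62.2 to 96.1, with a slight overlap. The 5 arrays include all of GD12, and the share of all tested probe sets that separate was not computed. With the log2 actin ratio as a covariate the log2 change from GD12 to GD14 was -0.49 for Gli3 (adjusted p = 0.191) and -0.39 for Gli2 (adjusted p = 0.4). Without the third array of every day, a setting chosen after the data were seen, it was -0.86 for Gli3 (adjusted p = 0.0694) and -0.60 for Gli2 (adjusted p = 0.312).

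**Figure D3:**
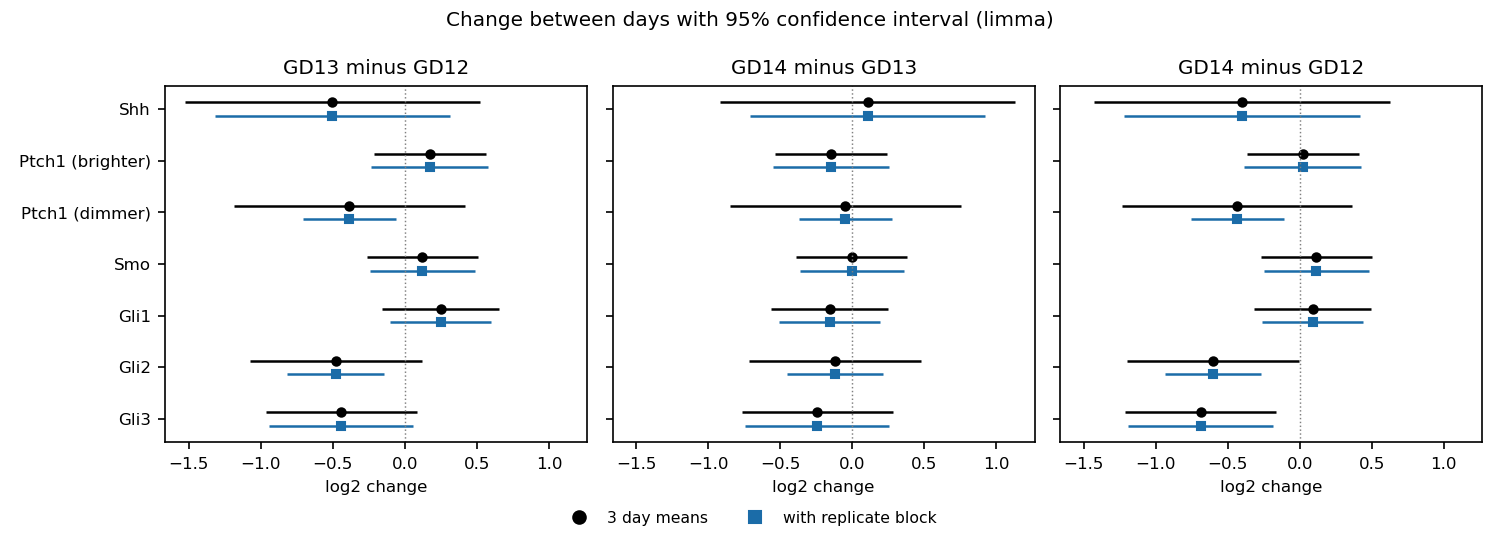
The log2 change between days (x axis) of each of the 7 probe sets, with symbols for the limma estimate, bars for its 95% confidence interval, black for the model of 3 day means and blue for the model with the replicate block. The GD12 to GD14 changes of Gli2 (-0.60) and Gli3 (-0.69) have intervals below 0 before adjustment, and the intervals of Shh are the widest in both models.

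A moderated F-test over the 3 days passed for 0 of 7 probe sets, where 2.64% of all tested probe sets passed. The lowest adjusted p was 0.328, for Gli3, the 1 member with an unadjusted p under 0.05 (14.2% of all). The second daily step minus the first passed for 0 of 7 and for 0% of all tested probe sets in limma. Of the 7, 0 had an unadjusted p under 0.05 there, against 4.84% of all.

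Among the 6 genes, each by its brightest probe set, 15 pairs were correlated over the 9 arrays, and 0 passed after adjustment over the 15 pairs. The closest pair was Gli2 with Gli3, with Pearson's r = 0.79 (exact permutation p = 0.00956, adjusted p = 0.143) and Spearman's rho = 0.76 (exact permutation p = 0.0219, adjusted p = 0.329), both two-sided. Without the 2 arrays farthest from the median of Gli2 r was 0.67, and after removal of the day means it was 0.58. Within single days of 3 arrays it was -0.86, 0.87 and 0.54. Under quantile normalization the pair passed (r = 0.85, exact permutation adjusted p = 0.0246). The permutations ran over all 9 arrays without regard to day or replicate number. A shift between days common to both genes thus enters these p-values, and the r after removal of the day means was not tested.

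The Shh correlations with Gli1 and the brighter Ptch1 probe set, transcripts that respond to the pathway, did not pass. None was computed between Shh and the dimmer Ptch1 probe set, which followed a different pattern, so these values do not cover it. Pearson's r was 0.15 with the brighter Ptch1 probe set (exact permutation p = 0.709) and 0.30 with Gli1 (exact permutation p = 0.431). After removal of the day means these were 0.34 and 0.62. Spearman's rho was 0.48 (exact permutation p = 0.194) and 0.20 (exact permutation p = 0.613), and without the 2 arrays farthest from the median of Shh r was 0.51 and -0.12. Ptch1 and Gli1, both targets of the pathway, had r = 0.36 (exact permutation p = 0.335) and rho = 0.30 (exact permutation p = 0.437). Their r was 0.25 without the 2 farthest arrays and 0.16 within days. Every adjusted p of these 3 pairs lay at or over 0.766.

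For each gene, by its brightest probe set, the most similar patterns on the array were listed by Pearson's r over the 9 arrays. The arrays share days and replicate numbers, and the 3 genes were chosen for their r among all tested genes, so these values are descriptions only. Closest to Shh were Eya2 (r = 0.97), which encodes a transcriptional coactivator and phosphatase, B4galt3 (0.96) and Cyp2c38 (0.93). Closest to Gli3 was Rbpj (0.97), the DNA-binding effector of Notch signalling, then Eif2b5 and Fdps (0.95 each). Closest to Gli2 were Mta2 (0.95), a subunit of a chromatin remodelling complex, Kifap3 (0.95), which encodes a subunit of the kinesin that builds cilia, and Ammecr1l (0.95). Ptch1 came with the imprinted gene Peg3 (0.96), Cct6b and Rasgrp2, Gli1 with the sphingosine receptor gene S1pr1 (0.93), Tpst2 and Dpp6, and Smo with the proteasome gene Psmb5 (0.91), Inca1 and Coro1b.

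Other genes of the pathway were grouped by role in 6 lists, each gene by its brightest tested probe set. Between GD12 and GD14, 2 of the 49 genes tested rose and 3 fell, against 3.34% and 1.05% of all tested probe sets. The risers were Ihh and Igfbp3 and the fallers were Foxc2, Mycn and Msx1. These lists were chosen with earlier results of these data known. The 49 are also the brightest tested probe set of each gene, while the shares include dimmer ones, so the 2 are not like for like. Under the filter at the median intensity, 337 of 6211 probe sets rose and 149 fell. Between GD13 and GD14, 0 of 49 passed, with 2 at an unadjusted p under 0.05. Between GD12 and GD13, 1 rose, Igfbp3, against 0.623% of all.

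Of 8 listed genes for other ligands and ligand release, 2 had a probe set annotated with that symbol alone. These were the ligand genes Ihh and Dhh, and the listed genes of ligand release had none. Ihh, the hedgehog ligand of cartilage, read 20.7, 26.0 and 31.4 on GD12, 53.7, 50.1 and 50.2 on GD13, then 63.9, 59.1 and 61.4 on GD14. Its 3 days did not overlap, and it rose 2.20-fold from GD12 to GD14 (log2 1.14, SE 0.16, limma adjusted p = 0.00548). The call held without each single array, with a highest adjusted p of 0.0313, and without the third arrays (0.031). The step from GD12 to GD13 did not pass (adjusted p = 0.0537). Dhh, a hedgehog ligand of the gonads and nerves, read 69.9 ± 5.71, 107 ± 10.5 and 87.7 ± 6.31 on the 3 days (SD, n = 3 each) and did not pass in any comparison. Beside Ihh, the summed intensity of 9 tested cartilage markers was 591 to 756 on GD12 and 532 to 991 on GD14, with 1 rise among them (Col11a2), a call that ended without GD14 replicate 1 (adjusted p = 0.0522). The low GD14 sum was that of the third array, and the others read 950 and 991. The median log2 change of the 9 genes was 0.59, against -0.02 over all tested probe sets. In limma 5 of 9 had an unadjusted p under 0.05, against 17.5% of all. Col9a1 went down (log2 -0.77) and fell with the replicate block (adjusted p = 0.048). The part of cartilage in the Ihh values was not tested.

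Among co-receptors and glypicans, cell surface proteins that help or hinder ligand binding, 0 of 5 tested genes passed between GD12 and GD14 and 1 had an unadjusted p under 0.05. Gpc4, a glypican gene, read 115.4, 117.9 and 102.3 on GD12, 143.0, 203.0 and 151.3 on GD13, then 217.3, 209.1 and 162.2 on GD14. Its days 12 and 14 did not overlap, with a log2 change of 0.78 and limma adjusted p = 0.0526, and with the replicate block it passed (adjusted p = 0.0303). With the log2 actin ratio as a covariate the log2 change was 0.65 and did not pass (adjusted p = 0.0706). Nor did it pass without the third arrays (adjusted p = 0.103) or without GD14 replicate 1 (adjusted p = 0.178). Gas1, which encodes a co-receptor that aids Shh signalling, gave means of 677 ± 67.5 and 545 ± 88.3 for GD12 and GD14 (SD, n = 3 each; adjusted p = 0.435). Gpc3, a glypican gene whose product binds the ligand and dampens the signal, read 4308 ± 241 and 3820 ± 558 (SD, n = 3 each; adjusted p = 0.626).

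Transducers and inhibitors inside the cell had 0 of 11 changes between GD12 and GD14, with 0 at an unadjusted p under 0.05 and a median log2 change of -0.04. The brightest were Prkar1a, the regulatory subunit of protein kinase A, a kinase that primes Gli proteins for processing (1735 ± 22.0 and 1545 ± 64.1), and Csnk1a1, a casein kinase of the same step (1009 ± 62.6 and 857 ± 85.1; SD, n = 3 each). Genes of the primary cilium, where Smo acts, had 0 of 9 changes, with 0 at an unadjusted p under 0.05 and a median of -0.08. Ift88, a transport protein needed to build cilia, read 606 ± 79.1 and 571 ± 103.5, and Tulp3, which brings receptors into the cilium, 426 ± 44.7 and 402 ± 26.5 (SD, n = 3 each).

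Of 13 tested genes listed as pathway targets, 1 rose and 2 fell between GD12 and GD14, and the median log2 change was -0.38. Foxc2, a forkhead factor of facial mesenchyme, read 75.2, 85.8 and 66.0 on GD12 and 47.8, 37.9 and 37.5 on GD14, and fell 1.77-fold (adjusted p = 0.0231). For a dimmer Foxc2 probe set the estimate was -0.99 on the log2 scale, and it did not pass (adjusted p = 0.151). Mycn, a growth-promoting transcription factor, read 167.8, 165.2 and 131.3 on GD12 and 91.7, 98.2 and 86.6 on GD14, and fell 1.64-fold (adjusted p = 0.0488). Igfbp3, which encodes a binding protein of insulin-like growth factors, read 357.4, 305.5 and 340.6 on GD12 and 788.6, 605.6 and 955.0 on GD14, and rose 2.29-fold (adjusted p = 0.0116). Its rise from GD12 to GD13 (log2 1.12, adjusted p = 0.049) did not hold with the replicate block (adjusted p = 0.0599) and ended without each of 7 single arrays, all but GD14 replicates 2 and 3. Another Igfbp3 probe set did not pass (log2 0.65, adjusted p = 0.554). With the log2 actin ratio as a covariate it did (log2 1.23, adjusted p = 0.0101), and without the third arrays its log2 change was 0.18 (adjusted p = 0.581).

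These target calls were sensitive to single arrays. The Mycn call ended without any one of 8 of the 9 arrays, all but GD12 replicate 3, with a highest adjusted p of 0.159 without GD12 replicate 1. The Foxc2 call ended without GD12 replicate 1 (0.0797), GD12 replicate 2 (0.0785), GD14 replicate 2 (0.0828) and GD14 replicate 3 (0.0553). The Igfbp3 call ended without GD14 replicate 1 (0.0536). Without the third arrays 0 of the 13 passed.

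The other targets of facial mesenchyme, the forkhead genes Foxf1, Foxf2, Foxd1, Foxd2 and Foxl1, did not pass, with log2 changes of -0.55 to -0.28 from GD12 to GD14. For Foxd1 the values were 235.0, 214.8 and 307.2 on GD12, 213.5, 167.2 and 374.3 on GD13, then 125.8, 129.6 and 292.0 on GD14. The third array was the highest on every day for Foxf1, Foxf2 and Foxd1, and for 5 of the 13 tested targets in all (38.5%), where 11.8% of all tested probe sets showed this order. Other lists had it as often or nearly so, at 4 of 9 cilium genes (44.4%), 3 of 9 regulators of palatal Shh (33.3%), 3 of 10 facial mesenchyme markers (30.0%) and 2 of 5 red cell markers (40.0%). The order was seen in 0 of 11 transducers and inhibitors and 0 of 11 neural markers. This count was taken after the data were seen. The third arrays are also those with the lowest actin ratio of their day. They had the lowest summed neural markers of their day as well, at 2474 on GD12 (3768 and 3687 on the others), 2150 on GD13 (2769 and 2755) and 1949 on GD14 (2675 and 2482). The part of either in this order was not tested.

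Among 9 tested genes that act upstream of Shh in the palate, 1 fell and 0 rose. Msx1, a homeobox factor of the anterior palate, read 1119.8, 1365.8 and 949.5 on GD12, 678.3, 685.0 and 700.8 on GD13, then 550.3, 635.2 and 565.4 on GD14, and its GD12 values lay above all others. It fell 1.94-fold from GD12 to GD14 (log2 -0.95, limma adjusted p = 0.0134), a call that ended without GD12 replicate 1 (0.0526) and without GD14 replicate 1 (0.0639). Bmp4, a signal that Msx1 maintains, read 230 ± 19.5 and 228 ± 8.91 (SD, n = 3 each; adjusted p = 0.986). Wnt5a, a signal of the palatal mesenchyme, read 202.3, 212.8 and 236.2 on GD12, 82.0, 70.0 and 175.2 on GD13, then 51.2, 47.4 and 213.0 on GD14. The third array of GD14 lay among the GD12 values, and it did not pass (adjusted p = 0.223). Without the third arrays it fell (log2 -1.99, adjusted p = 0.0133). With the log2 actin ratio as a covariate its log2 change was -0.74 (adjusted p = 0.14), against -1.37 without it.

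**Figure D4:**
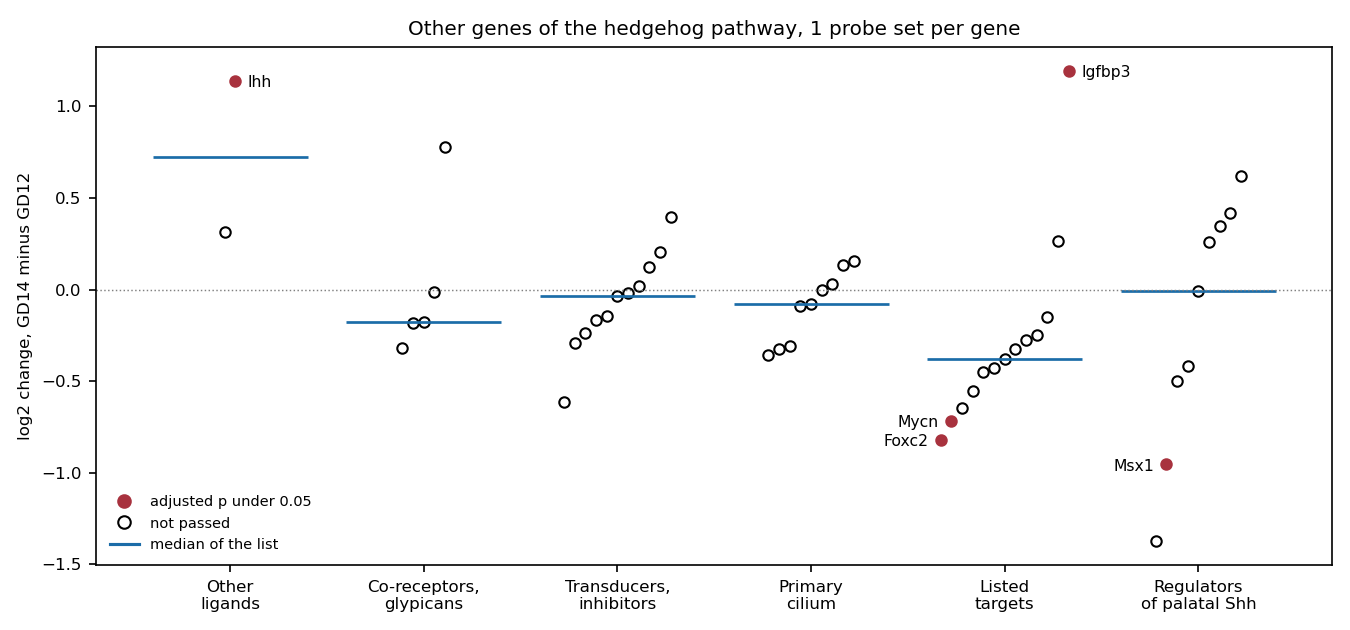
The log2 change from GD12 to GD14 (y axis) of each tested gene in 6 lists of other pathway genes (x axis), 1 probe set per gene, filled where the limma adjusted p was under 0.05 and with a line at the median of each list. Ihh and Igfbp3 lie above 0 and Foxc2, Mycn and Msx1 below it among the filled points, and the lists of transducers and cilium genes have none.

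Markers of the labelled tissue were present. Of 12 listed genes of facial mesenchyme, 10 were on the array and all 10 passed the filter, with a lowest gene mean of 23.6. Their summed intensity was 6877 to 7436 on GD12, 6400 to 7252 on GD13 and 8767 to 8922 on GD14, with 1 rise (Col1a2) and 1 fall (Msx1, also among the regulators above) from GD12 to GD14. The higher GD14 sum came from Col1a2, whose mean was 2240 on GD12 and 4801 on GD14. Without it the sum was 4951 to 5061 on GD12, 4088 to 4346 on GD13 and 3891 to 4304 on GD14, and the median log2 change of the 10 genes was -0.22. Skeletal muscle markers had 5 rises among 8 (sums of 1109 to 1420 and 2379 to 3668), of which 3 held without each single array. The Tnnc1 call ended without any one of 7 arrays and the Actc1 call without any one of 5. Red cell markers had 3 falls among 5 (20130 to 26500 and 10470 to 13930), those of the globin genes Hba-x, Hbb-bh1 and Hbb-y, and all 3 held. The rest did not fall. For Hba-a1, another globin gene, the log2 change was 0.088 (limma adjusted p = 0.86). For Alas2 it was 1.13 (limma adjusted p = 0.057), and Alas2 rose with the replicate block (adjusted p = 0.0112). Endothelial markers had 0 changes among 6. The part of these other cells in the values of the pathway genes was not tested.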

How the data were processed

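Total RNA of mouse orofacial tissue had been hybridized to 9 one-colour arrays, grouped by the day and replicate number in the sample titles. The authors deposited 1 linear intensity per probe set, and the values show that they had been scaled between arrays, since a trimmed mean was 150.0 on each. The image software was not given in the sources used here. Of 12422 probe sets other than 66 controls, 10833 had 1 gene symbol, 396 several and 1193 none. For 10817 of these the gene ID matched RefSeq's GRCm38.p6 genes, used for names only, and 0 symbols changed.

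Values were taken as log2(intensity + 4), where 4 is the next whole number above 3.1, the intensity under which the dimmest 10% fell. Fold changes are on that scale and understate the change of dim genes. Probe sets with a mean log2 value at or under the 25th percentile were left out. The other 9316 were fitted with limma 3.58.1 in R 4.3.3 as 3 group means over all 9 arrays (6 residual and 2.99 prior degrees of freedom), with Benjamini-Hochberg adjustment and a threshold of 0.05. The fit was tested on simulated data. Correlations used scipy 1.17.1 and numpy 2.4.6 under Python 3.11.15, and plots matplotlib 3.10.9. Intervals are limma's, unadjusted, at 95%. The number of arrays, 3 per day, limits the precision.

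Named genes were all members, up to 4 passing genes of each list with the smallest adjusted p or the 2 brightest where none passed, and the 3 most similar genes per member. Gpc4, Dhh, Bmp4, Wnt5a and the forkhead genes that did not pass were named after their values were seen. Members and lists were chosen with earlier results of these data known. Arrays that shared a replicate number across days had residual correlations of 0.19 to 0.43, and those with different numbers had -0.30 to -0.017. The main model and the permutation tests did not use this pairing. It entered only in the replicate block, an alternative model. Alternatives covered scaling, added value, filter, variance model, array weights, replicate block, actin ratio and omission of arrays.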

Additional observations from a re-analysis of the deposited data

How the results depend on the processing

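No member tested was called in any of the 5 comparisons under the alternatives run for it, including the replicate block, which changed no call of a member. The filter at the median left 5 of the 7 member probe sets (not Shh and Gli3), and the fit of only the groups compared was run for the 3 comparisons between days. The correlation of Gli2 with Gli3 was the 1 member pair to pass, under quantile normalization. With the replicate block 1 of the tested co-receptor genes passed (Gpc4). Without the third array of every day, chosen after the data were seen, 0 targets and 2 regulators of palatal Shh passed (Msx1 and Wnt5a). Directions changed for values near 0, none of which passed in either setting. With median scaling the log2 change was -0.021 for the brighter Ptch1 probe set from GD12 to GD14 and 0.014 for Smo from GD13 to GD14. With the actin ratio as a covariate, the GD13 to GD14 changes were 0.11 for the dimmer Ptch1 probe set and 0.013 for Smo. Without the third arrays, that of the brighter Ptch1 probe set was 0.030. With single arrays left out, the GD12 to GD14 change ran from -0.073 to 0.13 for the brighter Ptch1 probe set and from -0.020 to 0.17 for Gli1. The GD13 to GD14 change ran from -0.34 to 0.55 for Shh, -0.37 to 0.25 for the dimmer Ptch1 probe set, -0.062 to 0.038 for Smo and -0.37 to 0.068 for Gli2. The causes were not tested. Of all probe sets, 409 changed between GD12 and GD14, 651 with the replicate block and 183 to 412 with single arrays left out.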
